A study of Caenorhabditis elegans with 2 samples.

Results

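The 32 genes described here encode proteins of neurotransmitter and neuropeptide release, or of other neuronal functions, in Caenorhabditis elegans. They were chosen by name and not by a rule on measured values, but with earlier results of these data known. The genes were matched by symbol to the Ensembl annotation of WBcel235. All 32 matched, out of 19973 protein-coding genes on the nuclear chromosomes, and members lie on all 6 chromosomes. By role, 10 act in vesicle fusion and at the active zone, 3 in vesicle recycling, 6 in transport, the cytoskeleton and other neuronal functions, 7 in neuropeptide processing and dense-core vesicle release, 4 in transmitter synthesis and loading, and 2 as calcium channel subunits.

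The measurement was ChIP-seq of eGFP-tagged PHA-4 in L3 larvae, males and females pooled, with 1 group of 2 biological replicates. The strain, OP37, has the genotype unc-119(ed3) III; wgIs37, where wgIs37 is the insertion that carries tagged pha-4, and unc-119 is itself 1 of the 32 members. Both replicates share this background, and no untagged or second condition was analysed here. The antibody is listed as pha-4 while the experiment is described as eGFP-pha-4, so the epitope is not settled. Whole animals were used, so binding in neurons and binding in other cells cannot be told apart, and binding in a few cells cannot be told apart from weak binding in many. Expression was not measured.

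Release of transmitter is a cycle. Synaptic vesicles are loaded with transmitter, carried along microtubules, docked and primed at the active zone, and fused by the SNARE proteins when calcium enters through voltage-gated channels. Their membrane is then recovered by endocytosis. Neuropeptides follow a separate route, in which precursors are cut and trimmed inside dense-core vesicles that the protein CAPS helps to release. PHA-4 is the FoxA forkhead factor known for specifying the pharynx, an organ that holds its own neurons as well as muscle, gland and epithelium.

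The optimal list as deposited, the set left by the authors' reproducibility step, held 7847 peaks. Each peak has a summit and a signal, the authors' own peak height, whose scale is not stated; the median signal was 84.7 and the range 41.4 to 862. The pooled list and each replicate's list held 30000 regions each and include weak regions. For replicate values, signal was divided by that replicate's median over the optimal peaks (28.3 in replicate 1 and 57.5 in replicate 2), and this quotient is called relative signal, so that a relative signal of 1 is a typical optimal peak. Of the optimal peaks, 7739 were overlapped by a region in both replicate lists, and the median coefficient of variation of relative signal between replicates was 19.5%. Read depth is unknown, so no value below carries a counting error, and with 1 group no test between conditions was possible.

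Summit windows of some of the members that carry the binding described below are shown first, on the strand of the gene, 5' to 3'. Each is 101 bp with the summit in the middle, on build ce11. Capitals mark matches on either strand to TGTTTNC or TATTTNC, forms of the forkhead core, or to GAGAGA. The promoter windows are those of tbb-1 (chrIII:10742650-10742750, minus strand), snb-1 (chrV:6656814-6656914, minus strand), syd-2 (chrX:10555442-10555542, minus strand) and unc-18 (chrX:7682137-7682237, plus strand). The window of ric-4 (chrV:10265337-10265437, minus strand) lies in an intron and was added after its values were seen, as it held the single TATTTNC match among the members. No exon overlaps these windows.
tbb-1: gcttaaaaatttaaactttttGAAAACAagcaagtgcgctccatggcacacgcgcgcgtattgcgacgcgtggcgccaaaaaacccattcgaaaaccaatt
snb-1: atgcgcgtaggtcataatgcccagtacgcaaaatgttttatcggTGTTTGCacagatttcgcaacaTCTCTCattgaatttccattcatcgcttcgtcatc
syd-2: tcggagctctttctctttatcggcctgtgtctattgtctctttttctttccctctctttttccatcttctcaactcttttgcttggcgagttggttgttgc
unc-18: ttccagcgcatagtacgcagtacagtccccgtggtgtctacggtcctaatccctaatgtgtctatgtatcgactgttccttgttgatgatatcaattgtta
ric-4: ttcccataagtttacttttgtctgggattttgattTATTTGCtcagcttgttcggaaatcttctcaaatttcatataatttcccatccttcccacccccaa

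PHA-4 summits lay at the promoters of 6 of the 32 genes. These were snb-1 (the vesicle SNARE synaptobrevin), unc-18 (the syntaxin-binding protein Munc18), syd-2 (liprin-alpha, an active zone scaffold), unc-11 (the clathrin adaptor AP180), tbb-1 (a beta-tubulin) and ric-19 (the worm ICA69, which acts in dense-core vesicle maturation). A promoter summit here means an optimal summit from 1000 bp upstream to 200 bp downstream of any annotated 5' end of the gene. The 6 genes make 18.8% of the members, against 24.0% of all protein-coding genes (4796 of 19973), so the members' share is near the background. A further 3 genes, ric-4 (the SNARE SNAP25), unc-33 (a CRMP family protein that organises neuronal microtubules) and unc-119, held a summit in an intron only, so that 9 of 32 members (28.1%) had a summit in the promoter window or the gene, against 26.9% of all protein-coding genes. A summit in the gene outside its promoter windows, with or without a promoter summit as well, was found for 3 members (9.38%). The share over all protein-coding genes, counted the same way, was 5.84%.

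**Figure D1:**
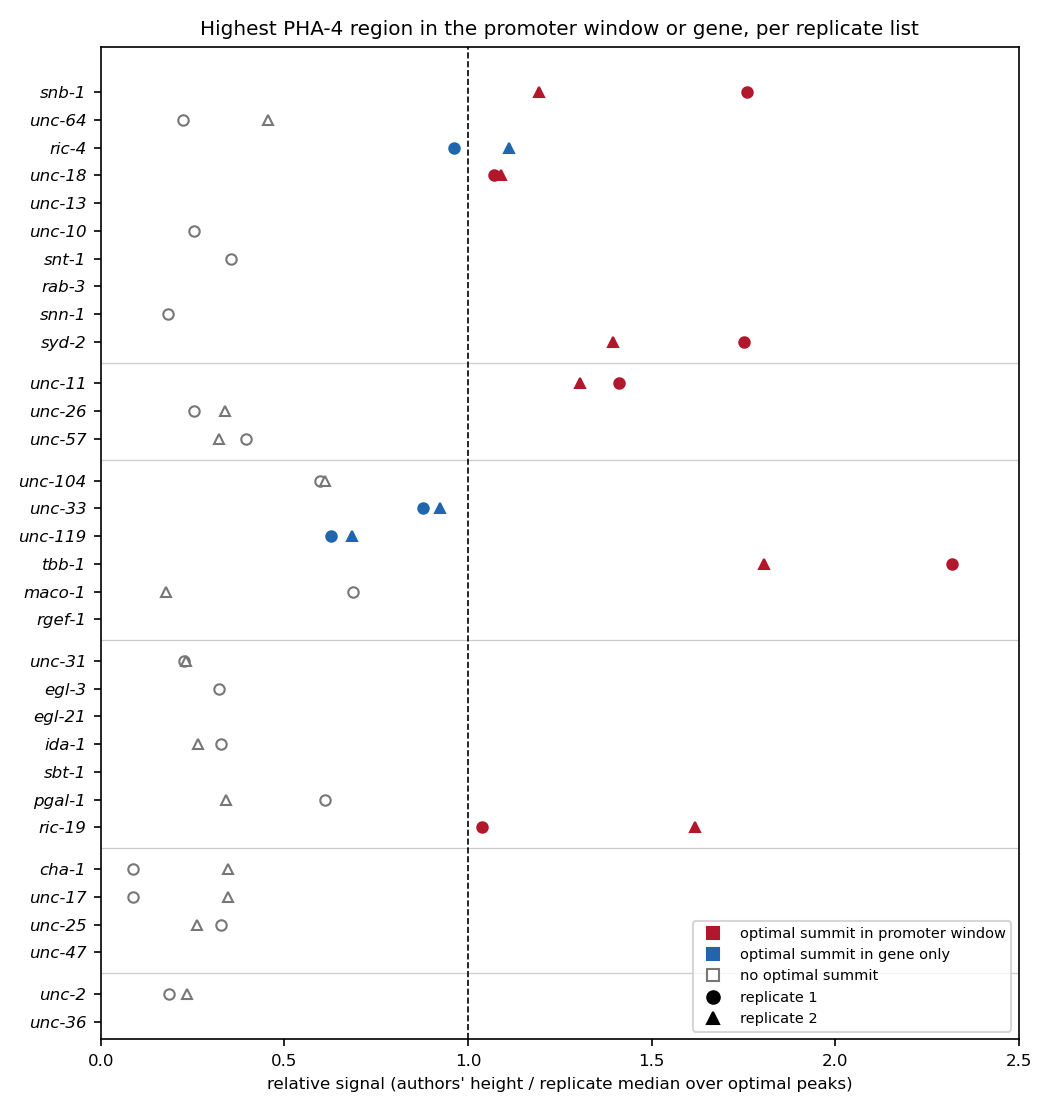
Relative signal (x axis, authors' height over the median of optimal peaks in the same replicate) of the highest region in the promoter window or gene of each of the 32 members (rows, grouped by role), with circles for replicate 1 and triangles for replicate 2. Filled red symbols are the 6 genes with an optimal promoter summit, filled blue the 3 with an optimal summit in the gene only, and open symbols the genes with no optimal summit; rows without a symbol had no region in either replicate list. Both replicates of the 6 red genes lie to the right of the dashed line at 1, and no open symbol reaches 0.7. Colours come from the optimal list, which was made from the same replicates, so the grouping itself sets part of this separation.

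Among the fusion and active zone genes, snb-1 had its promoter peak on chromosome V (6656694 to 6657033), with the summit 363 bp upstream of the single annotated 5' end. Its signal was 114.6 in the optimal list, rank 2497 of 7847, and relative signal was 1.76 in replicate 1 and 1.19 in replicate 2 (1.48 ± 0.40, SD, n = 2). Both replicates were above a typical optimal peak, with replicate 1 the higher. The window printed above holds 1 TGTTTNC and 1 GAGAGA match, and snb-1 was the only member with a GAGAGA match. The gene also had a second optimal peak farther out, 1286 bp upstream (chromosome V, 6657617 to 6657956), with signal 95.1 and relative signal 1.16 ± 0.24 (SD, n = 2).

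The liprin-alpha gene syd-2 had a narrow peak of 151 bp on chromosome X (10555430 to 10555580), 253 bp upstream of its 5' end, with signal 112.7 (rank 2562). Relative signal was 1.75 in replicate 1 and 1.40 in replicate 2 (1.57 ± 0.25, SD, n = 2), again above 1 in both. The replicates placed the summit differently: replicate 2 lay 19 bp from the optimal summit and replicate 1 lay 144 bp from it on the far side from the gene. The replicate 1 summit falls inside F59F5.9, an annotated non-coding RNA gene on the minus strand (10555546 to 10555744) whose nearer edge is 54 bp from the optimal summit. A peak here can therefore be assigned to either gene. The sequence under the optimal summit held none of the motifs searched, and 76.2% of its bases were pyrimidines on a single strand; 2.04% of all optimal windows reached that share, and the median was 57.4%.

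The unc-18 peak was on chromosome X (7682017 to 7682356) with its summit 709 bp upstream, the farthest of the 6 promoter summits. Signal was 90.4 (rank 3574), the lowest of the 6. Relative signal was 1.07 in replicate 1 and 1.09 in replicate 2 (1.08 ± 0.013, SD, n = 2), the smallest spread among the 9 peaks. A second optimal peak, 1868 bp upstream (chromosome X, 7680858 to 7681197, signal 54.4), stood nearer to stn-2, whose 5' end was 409 bp away, and its interval contains the tRNA gene F27D9.t1 (7681040 to 7681111).

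The third SNARE-related peak was inside a gene. At ric-4 the summit lay in an intron on chromosome V (10265315 to 10265412), 2644 bp upstream of the more downstream of the 2 annotated 5' ends. Signal was 93.7 (rank 3387). Relative signal was 0.96 in replicate 1 and 1.11 in replicate 2 (1.04 ± 0.11, SD, n = 2), on either side of a typical optimal peak, and the summits of both replicates lay within 2 bp of the optimal one. This 98 bp peak was the narrowest among the members.

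For the other 6 fusion and active zone genes no optimal summit was found in the promoter window or gene. They are unc-64 (syntaxin), unc-13 (the priming factor Munc13), unc-10 (the active zone protein RIM), snt-1 (synaptotagmin, the calcium sensor), rab-3 (the vesicle GTPase) and snn-1 (synapsin). The nearest miss was unc-64, with an optimal summit 1254 bp upstream of a 5' end (chromosome III, 13275834 to 13276173, signal 59.5, rank 5765). Its replicates stood far apart: relative signal was 1.22 in replicate 1 and 0.47 in replicate 2 (0.84 ± 0.53, SD, n = 2). Closer in, 71 bp upstream of an unc-64 5' end, the pooled list had a region of signal 31.3, and replicate 2 had one at the same place with relative signal 0.46, while replicate 1 had none in the promoter window. The pooled list held 8 regions over the unc-64 promoter and gene, none of them in the optimal list.

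At the remaining active zone genes weak regions were listed in replicate 1 and not in replicate 2, or in neither. Replicate 1 had regions at unc-10 (relative signal up to 0.25), snt-1 (0.35) and snn-1 (0.18), and of these genes the pooled list had a region at snn-1 (signal 8.69). For unc-13 and rab-3 no summit was in the promoter window or gene in the pooled list or either replicate list, although unc-13 spans 31332 bp. The nearest optimal summit was 23603 bp from an unc-13 5' end and 9680 bp from a rab-3 5' end.

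Of the 3 vesicle recycling genes, unc-11 had the promoter peak closest to a 5' end of any member. It was on chromosome I (3805703 to 3805828) with the summit 36 bp upstream and a signal of 115.8 (rank 2457). Relative signal was 1.41 in replicate 1 and 1.30 in replicate 2 (1.36 ± 0.076, SD, n = 2). The window held a TGTTTNC match. The synaptojanin gene unc-26 and the endophilin gene unc-57 had no optimal summit, but they were the only members without one that had a promoter region in both replicate lists. At unc-26 the highest promoter region reached a relative signal of 0.25 in replicate 1 and 0.34 in replicate 2, with summits 320 bp upstream and 11 bp downstream of a 5' end. At unc-57 the values were 0.22 in replicate 1 and 0.32 in replicate 2, with summits 751 bp and 244 bp upstream. At unc-57 these are the positions of the highest promoter region in each list, and replicate 2 had 2 such regions.

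The highest member peak stood beside tbb-1, on chromosome III (10742615 to 10742795), with signal 170.4 and rank 1141. Relative signal was 2.32 in replicate 1 and 1.81 in replicate 2 (2.06 ± 0.36, SD, n = 2), so both replicates were well above a typical optimal peak. The summit is 268 bp upstream of tbb-1 and 110 bp from a 5' end of the neighbouring gene rib-2, which encodes a heparan sulfate glycosyltransferase, and it lies in the promoter windows of both. Only tbb-1 and ric-19 shared their promoter summit with another protein-coding gene, which is 2 of 6 members' promoter summits; over the genome 23.0% of promoter summits were shared. When each summit was given only to the nearest 5' end, tbb-1 lost its call.

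Also in the transport and cytoskeleton group, unc-33 had its summit in an intron on chromosome IV (3524620 to 3524959), 5106 bp downstream of the nearest of its own 5' ends. Signal was 73.2 (rank 4666), and relative signal was 0.88 in replicate 1 and 0.93 in replicate 2 (0.90 ± 0.034, SD, n = 2). The summit was 29 bp from the tRNA gene M57.t1 (3524819 to 3524891, plus strand) and 22 bp from the non-coding RNA gene Y37E11C.3, and the nearest protein-coding 5' end was that of M57.2, at 2564 bp. What the peak belongs to among these genes was not tested. A second optimal peak lay 1087 bp upstream of an unc-33 5' end, just outside the promoter window (chromosome IV, 3515629 to 3515968, signal 86.7, rank 3802), with relative signal of 1.34 in replicate 1 and 0.83 in replicate 2 (1.09 ± 0.36, SD, n = 2). The pooled list held 11 regions over the unc-33 promoter and gene, more than at any other member.

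The weakest member peak was at unc-119, in an intron on chromosome III (10903973 to 10904312) 1502 bp downstream of a 5' end. Signal was 49.9 (rank 6756), and relative signal was 0.37 in replicate 1 and 0.68 in replicate 2 (0.53 ± 0.22, SD, n = 2), below a typical optimal peak in both. The strain carries the unc-119(ed3) allele, and 7 pooled regions lay over the promoter and gene; the part of the strain's genotype in these regions was not tested.

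The kinesin gene unc-104, which moves synaptic vesicle precursors, had no optimal summit, yet it held the strongest region in the pooled list of any member without one. That region had signal 35.7 and relative signal 0.42, at 5696 bp inside the gene. Both replicates had an intragenic region of similar height, 0.60 in replicate 1 and 0.61 in replicate 2, and the highest lay 5720 bp from a 5' end in replicate 1 and 7322 bp in replicate 2. The macoilin gene maco-1 had a promoter region in replicate 1 alone, with relative signal 0.69, the highest of any member without an optimal summit. Replicate 2 had none in the maco-1 promoter, and the pooled list had a relative signal of 0.21 there. No region was listed at rgef-1, a RasGRP-type exchange factor whose promoter is widely used to mark neurons.

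In the peptide group 1 of 7 genes had an optimal summit in the promoter window (14.3%), against 24.0% of all protein-coding genes. The ric-19 peak, on chromosome I (3781705 to 3782044), had its summit 185 bp upstream and a signal of 121.0 (rank 2246), the second highest among the members. The replicates differed here by more than at any other promoter peak of the members: relative signal was 1.04 in replicate 1 and 1.62 in replicate 2 (1.33 ± 0.41, SD, n = 2), and the summit is shared with the promoter window of pmlr-1. For unc-31 (CAPS, the dense-core vesicle priming factor), egl-3 (a proprotein convertase), egl-21 (a carboxypeptidase), ida-1 (an IA-2 type phosphatase-like protein), sbt-1 (a convertase chaperone) and pgal-1 (a peptide-amidating lyase), no optimal summit was in the promoter window or gene. Neither the pooled list nor either replicate list had a region at egl-21 or sbt-1. Optimal peaks did lie within a few kilobases of both, but beside other genes: 2082 bp upstream of egl-21 (signal 207.0) the summit was 184 bp from a 5' end of ced-5, and 3191 bp upstream of sbt-1 (signal 160.4) it was 307 bp from num-1.

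The regions at the other peptide genes were weak. In unc-31 the relative signal was 0.23 in replicate 1 and 0.23 in replicate 2, with the replicate 1 summit 199 bp and the replicate 2 summit 285 bp downstream of a 5' end, while the pooled list had none. In ida-1 it was 0.33 in replicate 1 and 0.27 in replicate 2 for the highest region in the gene, and the nearest optimal summit was 33477 bp away, the farthest of any member. In egl-3 replicate 1 alone had a region (0.32). In pgal-1 the gene held a region of relative signal 0.61 in replicate 1 and 0.34 in replicate 2, the highest at 4704 bp in replicate 1 and 3617 bp in replicate 2 from its 5' end. In both replicates the 5' end nearest to these summits was that of the neighbouring gene F21F3.6.

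None of the 4 transmitter genes had an optimal summit in the promoter window or gene; over all protein-coding genes 26.9% had one, so a count of 0 among so few genes says little. The choline acetyltransferase gene cha-1 and the vesicular acetylcholine transporter gene unc-17 share their 5' region, so their windows hold the same regions and do not count as separate observations. There the pooled list had a signal of 20.1 (relative signal 0.24) 625 bp upstream of cha-1, and replicate 2 had 0.35 at the same place, while replicate 1 had no region in the promoter window. At unc-25, the glutamate decarboxylase gene that makes GABA, the highest promoter region was 12 bp upstream in replicate 1 (relative signal 0.33) and 985 bp upstream in the pooled list (0.13), with none in replicate 2. No region was listed at unc-47, the vesicular GABA transporter.

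Neither calcium channel gene had a promoter region in the optimal, pooled or replicate lists. The CaV2-type channel gene unc-2 is the longest member at 52607 bp. Its pooled list regions numbered 7, all inside the gene, and the highest had a signal of 11.9 (relative signal 0.14). The replicates gave 0.18 in replicate 1 and 0.23 in replicate 2 for the highest region. The accessory subunit gene unc-36 had no region in any of these lists.

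**Figure D2:**
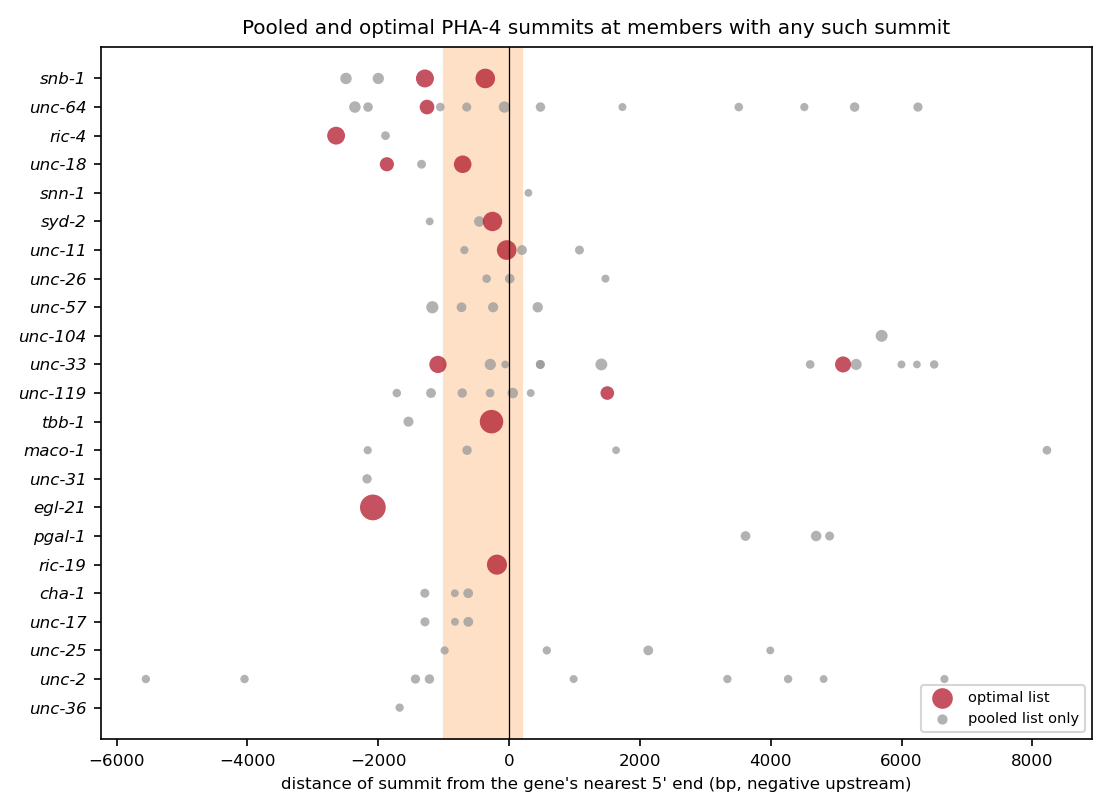
Summits of the pooled list (grey) and the optimal list (red) by distance in bp from the nearest 5' end of each member that has any (x axis, negative upstream; shaded, the promoter window of 1000 bp upstream to 200 bp downstream), with marker area growing with signal. The 6 promoter summits lie 36 to 709 bp upstream. Outside both the shaded window and the genes, optimal summits of unc-33, unc-64, snb-1, unc-18 and egl-21 lie 1087 to 2082 bp upstream.

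Across all 9 peaks, the optimal summit was in intergenic sequence at 6 and in an intron at 3. The same split over all optimal peaks was not counted. All 9 were overlapped by a region in both replicate lists, as were 7739 of all 7847 optimal peaks. The 6 promoter summits were all upstream, at a median of 260.5 bp from the 5' end. Replicate 2 gave the higher relative signal at 5 of the 9, and at 52.3% of all optimal peaks.

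The promoter peaks of the members were of middle to upper height, and the intron peaks of unc-33 and unc-119 were below the median of the optimal list. Median signal over the 6 promoter-bound members was 115.2 (range 90.4 to 170.4), against 103.9 over all protein-coding genes with a promoter summit. All 6, and 7 of the 9 peaks in all, fell among the 3923 optimal peaks of higher signal, and none came among the 1000 highest.

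**Figure D3:**
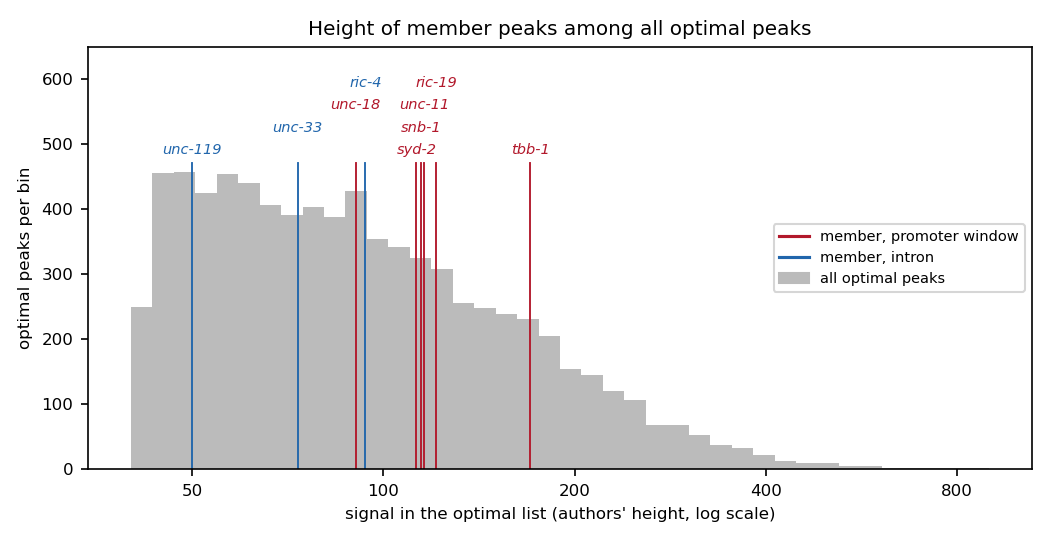
Signal of the 9 member peaks (vertical lines, red for promoter window and blue for intron) over the distribution of all 7847 optimal peaks (grey bars; x axis, authors' height on a log scale; y axis, peaks per bin). The promoter peaks lie between 90.4 and 170.4, and the intron peaks between 49.9 and 93.7.

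For the 23 members with no optimal summit, the weaker lists add detail. A promoter summit was in the pooled list for 15 of 32 members (46.9%), against 39.4% of all protein-coding genes. A promoter summit in both replicate lists was found for 10 members (31.2%), against 34.7% of all protein-coding genes, and in neither for 13 members (40.6%), against 51.6%. Both shares were lower among the members, the first by little. Among the 23, 2 had a promoter region in both replicate lists, 9 in 1 list only and 12 in neither. The same split was not counted over all protein-coding genes without an optimal summit. The highest pooled promoter regions of the 23 members had relative signal between 0.13 and 0.37 in the pooled list. The weakest member peak of the optimal list, at unc-119, had 0.59. This gap is set by the grouping, as the 7847 highest pooled regions gave the same members as the optimal list. A total of 7 members (21.9%), unc-13, rab-3, rgef-1, egl-21, sbt-1, unc-47 and unc-36, had no summit in the promoter window or gene in the pooled list or either replicate list, against 45.0% of all protein-coding genes.

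Gene length differed between the members and all protein-coding genes, and its part in these counts was not tested. Members had a median length of 6535.5 bp and a median of 2 annotated 5' ends, against 2027 bp and 1 over all protein-coding genes, so more sequence was searched per member. Per 100 kb of gene, members held 1.05 optimal summits (3 over 286 kb), against 4.26 (2743 over 64439 kb) over all protein-coding genes. The gene spans counted here include the 200 bp downstream of the 5' end that the promoter window also covers.

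In the 101 bp summit windows, TGTTTNC was found at 3 of 9 members (snb-1, unc-11 and tbb-1), TATTTNC at 1 (ric-4) and GAGAGA at 1 (snb-1). Over all optimal peaks the shares were 22.6% for TGTTTNC, 17.9% for TATTTNC and 23.3% for GAGAGA; in windows 500 bp to the side they were 8.59%, 14.2% and 5.38%. Both strands were searched, and TGTTTNC and TATTTNC cannot match at the same bases of the same strand. Windows at ric-19, unc-18, syd-2, unc-33 and unc-119 held none of these letters. The G and C content of the member windows ran from 36.6% at ric-4 to 50.5% at unc-33, and the median over optimal peaks was 40.6%.

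Related genes, from lists that are not independent of earlier results on these data, give a setting for the members. Among 33 other synaptic vesicle and active zone genes, 8 had a promoter summit (24.2%) and 10 a summit in the window or gene. Over all protein-coding genes these shares were 24.0% and 26.9%. The highest were at unc-16 (the JIP3-type kinesin adaptor, signal 298), unc-14 (219), unc-76 (190) and tom-1 (tomosyn, an inhibitor of fusion, 166). Each of these except tom-1 stood above every member peak. Among 16 other dense-core vesicle and peptide processing genes, 6 had a promoter summit (37.5%), led by unc-108 (the small GTPase RAB2, 145), cpd-1 (a carboxypeptidase, 140), bli-4 (a furin-like convertase that also acts in the cuticle, 72.1) and hid-1 (62.2).

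The cargo genes were seldom listed with a promoter summit. Of 142 neuropeptide and insulin-like ligand genes, 5 had a promoter summit (3.52%), against 24.0% of all protein-coding genes. The highest were at ins-39 (signal 292), nlp-4 (145, shared with exos-3), ins-12 (110) and ins-35 (55.2). Of 33 vesicle and cytoskeleton genes used by all cells, 17 had one (51.5%), with tba-2 (an alpha-tubulin, 342), rab-18 (327, shared with kbp-4 and par-2), dpy-23 (a clathrin adaptor subunit, 294) and syx-7 (an endosomal syntaxin, 239) the highest. Differences between these lists and the members were not tested.

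**Figure D4:**
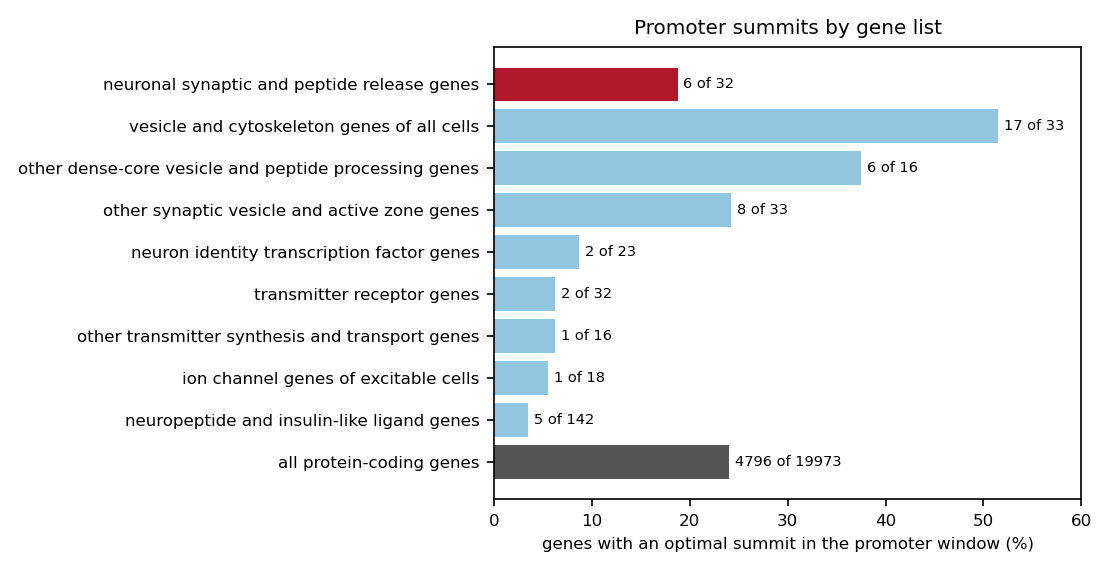
Share of genes with an optimal summit in the promoter window (x axis, percent) for the 32 members (red), 8 other gene lists (blue) and all protein-coding genes (dark grey), with the counts beside the bars. The members' bar, 6 of 32, lies between the 142 ligand genes (5) and the 33 vesicle and cytoskeleton genes of all cells (17).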

How the data were processed

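ChIP-seq against eGFP-tagged PHA-4 was done in L3 larvae as 2 biological replicates. Per the manifests deposited with the samples, each replicate's list came from its own alignment and a control file common to both, the pooled list from both alignments, and the optimal list from these 3 by an irreproducible discovery rate step. The sources used here name no aligner, peak caller or threshold and give no read depth. The deposited lists give signal, the authors' peak height, and the q-value as −log10, which was not used to rank peaks because many peaks tie at its highest value, 4.15. Only build ce11 was used, since it is the assembly of Ensembl release 115 (WBcel235); sequences came from RefSeq's copy of WBcel235.

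Summits were assigned to genes by promoter window (1000 bp upstream to 200 bp downstream of any 5' end) and gene span, and optimal peaks were matched to replicate regions by at least 1 bp of overlap, taking the nearest summit. The window rule was tested on simulated data. The members, lists and alternatives were chosen with earlier results of these data known. Named genes were all members, neighbouring genes with a claim on a member's summit, and up to 4 genes per other list with the highest promoter signal. Non-coding genes beside a summit were named after their values were seen. Alternatives were other windows, assignments, list lengths, single replicates and motif windows. Python 3.11.15, NumPy 2.4.6, pandas 2.3.3 and Matplotlib 3.10.9 were used.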

Additional observations from a re-analysis of the deposited data

How the results depend on the processing

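The count of members with a promoter summit was 6 and ran from 5 to 8 under the alternatives. The share of all protein-coding genes, 24.0%, moved too, from 15.1% (6 members, higher-signal part of the optimal list) to 29.4%. A narrower window (500 bp upstream, 100 bp downstream) gave 5, losing unc-18, with 19.5% of all protein-coding genes. A wider one (2000 bp upstream) gave 8, adding unc-64 and unc-33, with 29.4% of all protein-coding genes. Giving each summit to the nearest 5' end within 2000 bp also gave 8, losing tbb-1 and adding unc-64, unc-33 and unc-119. The share of all protein-coding genes was then 23.2%. With the highest 7847 regions of a single replicate's list the count ran from 6 to 7, and maco-1 was added from replicate 1 alone. The shares of all protein-coding genes were 24.6% with replicate 1 and 24.0% with replicate 2. The count in the window or gene, 9, ran from 7 to 12 over all alternatives and from 10 to 12 with single replicates. The share of all protein-coding genes, 26.9%, ran from 16.9% to 31.5%. It was 27.7% with replicate 1 alone (12 members) and 26.8% with replicate 2 alone (10 members). In these counts unc-104 was added from either replicate, and maco-1 and pgal-1 from replicate 1 alone. The median relative signal of promoter-bound members, 1.36, ran from 1.20 to 1.41, and from 1.35 to 1.41 with single replicates. Motif counts rest on 9 windows and moved with window size: with 100 bp either side of the summit, GAGAGA was in 3 windows (34.9% of all optimal peaks) and TATTTNC in 2 (31.4%), and with 25 bp TGTTTNC was in 1 (12.7%). Of 76 values for single genes, 8 moved by more than the spread between replicates (at ric-4, snb-1, syd-2, unc-18 and unc-33); most other settings return the same peak by construction, and settings in which a gene had no call gave no value. No paired analysis was possible because there is 1 group. Read depth is unknown, so a member without a summit is one where none was listed, not one shown to be unbound.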

Other observations

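Of 32 transmitter receptor genes, 2 had a promoter summit (6.25%), against 24.0% of all protein-coding genes. These were gbb-1 (a GABA-B receptor subunit, signal 101) and ser-1 (a serotonin receptor, signal 55.2). Among 16 other transmitter synthesis and transport genes the single one was snf-3 (6.25%, signal 44.6). Among 18 matched ion channel genes it was exp-2, a potassium channel gene (5.56%, signal 42.5). Relative signal was 0.49 ± 0.0093 at snf-3 and 0.50 ± 0.0067 at exp-2 (SD, n = 2 each), so both peaks were low and close between replicates.

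Of 23 matched genes for neuron identity transcription factors, 2 had a promoter summit (8.70%, against 24.0% of all protein-coding genes), both of the ONECUT family. The peak at ceh-38 had a signal of 342 and a relative signal of 4.0 ± 0.37 (SD, n = 2), and is shared with malt-1. The peak at ceh-39 had a signal of 106 and a relative signal of 1.20 ± 0.13 (SD, n = 2). No difference between these lists was tested.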
